A study of Triticum turgidum subsp. durum with 32 samples.

Results

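Among 150754 transcribed loci of Kronos wheat leaves, 56 had 2 sorts of library within the *PHYB* wild-type line, some in which the locus was expressed and some in which it was low, with no library between. They were chosen by the *PHYB* wild-type counts themselves. Levels are given as CPM, the count of a locus per 1000000 counted reads of the library. A locus was kept when its highest value over the 8 *PHYB* wild-type libraries reached at least 2 CPM, when every one of these libraries held either at least 25% or at most 5% of that highest value, and when at least 2 libraries stood on each side. This rule on values was met by 65 loci, of which 9 lay in a segment of chromosome 1B that was left out and 0 were among the genes of the study's main tables, which were left out as well. Everything said about the *PHYB* wild-type values below is therefore a description, and nothing is read from the comparison that includes them.

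RNA was taken from the third leaf, fully extended, of 4-week-old plants of Kronos, a tetraploid spring durum wheat, grown at 16 h light and 8 h dark. The *phyB*-null line carried stop mutations in both the A- and the B-genome copy of *PHYB*, and *phyC*-null carried null mutations of *PHYC* whose kind is not given in the sources used here. Their sister lines without the mutations were the *PHYB* wild type and the *PHYC* wild type. The *phyB* mutations came from a mutagenized Kronos population and were crossed back to Kronos. The *phyB*-null plants are sterile, so that this line was kept through heterozygous parents. Each line was sampled in 2 experiments with 4 biological replicates each, which gave 32 libraries in 8 groups. The *PHYB* experiments followed one another in the same growth chamber, whereas the *PHYC* experiments were done in separate chambers of the same model that differed in their ballast systems.

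Phytochromes B and C are red and far-red light receptors, and in wheat both are needed for the rapid flowering of plants in long days through *PPD1* and *FT1*. Tetraploid wheat holds most genes as a pair of homoeologues, one in the A and one in the B genome, which can be expressed at unequal levels. A read is assigned to one of them only where their sequences differ, so the counts of a locus with a near-identical copy are uncertain. The files do not pair the loci with exons or protein sequences, 0 of the 56 locus names were matched in the reference gene table, and sequences are not shown here.

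Library totals ranged from 15961572 to 47695062 counted reads. At the smallest total, 2 CPM correspond to 31.9 reads and 5% of that to 1.60 reads, so at the faintest loci the low side is close to single reads and a low value cannot be told from 0. The flowering genes *FT-A1* and *FT-B1*, which need both phytochromes, were between 5.65 and 55.1 CPM in every wild-type library and at most 0.185 CPM in every null library, which fits their labels. The sources do not pair *PHYB* and *PHYC* with loci of the table, so their transcripts were not used as a check. Replicates of a group differed by more than counting error in every pair (chi-square per locus 1.42 to 72.5), and no library was a copy of another. The 1.42, only slightly above counting error, was that of replicates 3 and 4 of *phyB*-null of experiment 2. Every other pair was at 5.17 or more.

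The word silent fits only part of these loci. Of the 177 low *PHYB* wild-type values, 41 (23.2%) were 0 reads, the median was 2 reads, and the highest of them were at Traes_6BL_B51240ACF, the most abundant of the 56 loci in CPM. Of all 35623 loci that reached 2 CPM in the *PHYB* wild type and were not left out, termed eligible below, 87.9% were on the high side in all 8 libraries. The rule sits on a continuum at both of its edges. Just inside the 25% edge, the lowest high library stood at 25.3% for Traes_1BL_A4F8B229A, 25.4% for Traes_2BS_A3FACFBB7 and 26.3% for Traes_1AL_A785A010E, and just outside it were td-k51_contig_78289 (24.7%), KukriC7007_5 (24.01%) and Traes_7BL_3F209A3A3 (23.8%). Just inside the 5% edge, the highest low library stood at 4.93% for td-k21_contig_63926, 4.71% for td-k35_contig_42790 and 4.33% for contig80595, and just outside it were td-k51_contig_84006 (5.04%), Traes_7AL_34D47090A (5.09%) and Traes_1BL_E977DCEF3 (5.34%).

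The loci were unevenly placed. Chromosome 7B held 14 of the 56 (25%, against 6.87% of eligible loci), 1A held 13 (23.2% against 6.62%) and 1B held 7 (12.5% against 4.99%, although a segment of it had been left out). The other loci were on 7A (5), 2B and 3B (4 each), 3A (3), 5A and 5B (2 each), 4B and 6B (1 each), and 0 were on 2A, 4A and 6A. The B genome held 33 loci and the A genome 23. Of the 56, 42 were placed on a chromosome and 14 lay on scaffolds known only by their arm, and the locus lengths ran from 156 to 19356 bases with a median of 1843.5. Only 19 loci (33.9%) carried a Traes identifier of the wheat gene annotation, against 70.2% of eligible loci, and the others were transcript contigs without one.

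**Figure D1:**
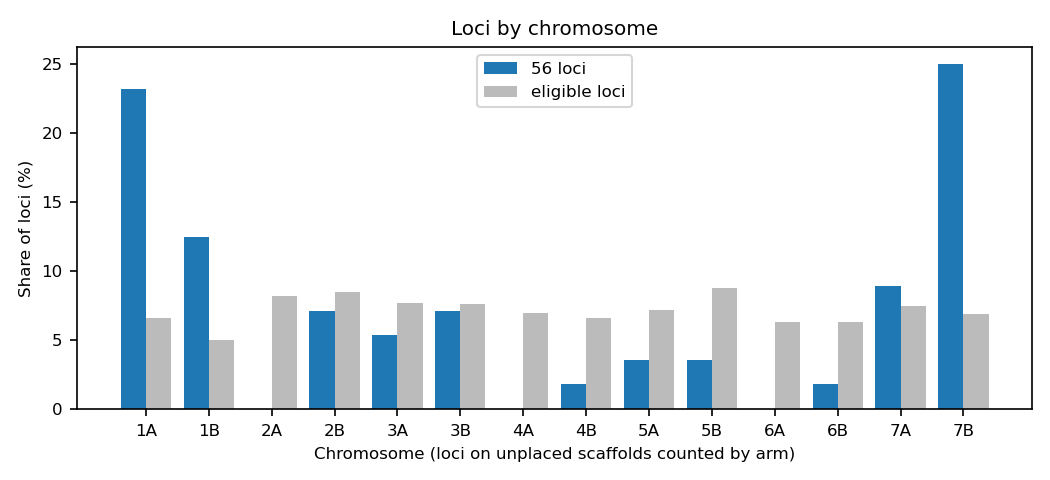
Share of the 56 loci (blue) and of the 35623 eligible loci (grey) on each chromosome, in percent, with scaffold loci counted by their arm. Chromosomes 7B (25%) and 1A (23.2%) hold the most loci, and 2A, 4A and 6A hold 0.

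Many of the loci shared their low libraries. Only 14 different sets of low *PHYB* wild-type libraries occurred among the 56 loci, and 40 loci fell into 4 of them. In 16 loci the low libraries were replicates 1, 3 and 4 of experiment 2, and 13 of these loci were on 7B (the 7B set). In 9 loci, all on 1A, they were replicates 1 and 2 of experiment 2 (the 1A set). In 9 loci on 6 chromosomes they were replicates 1 and 4 of experiment 1 and replicate 3 of experiment 2 (the dispersed set). In 6 loci, 4 of them on 1BL scaffolds, they were replicate 3 of experiment 1 and replicates 1 and 4 of experiment 2 (the 1BL set). A further 6 of the 14 sets were seen at a single locus each. A given *PHYB* wild-type library was low at between 9 and 36 of the 56 loci.

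**Figure D2:**
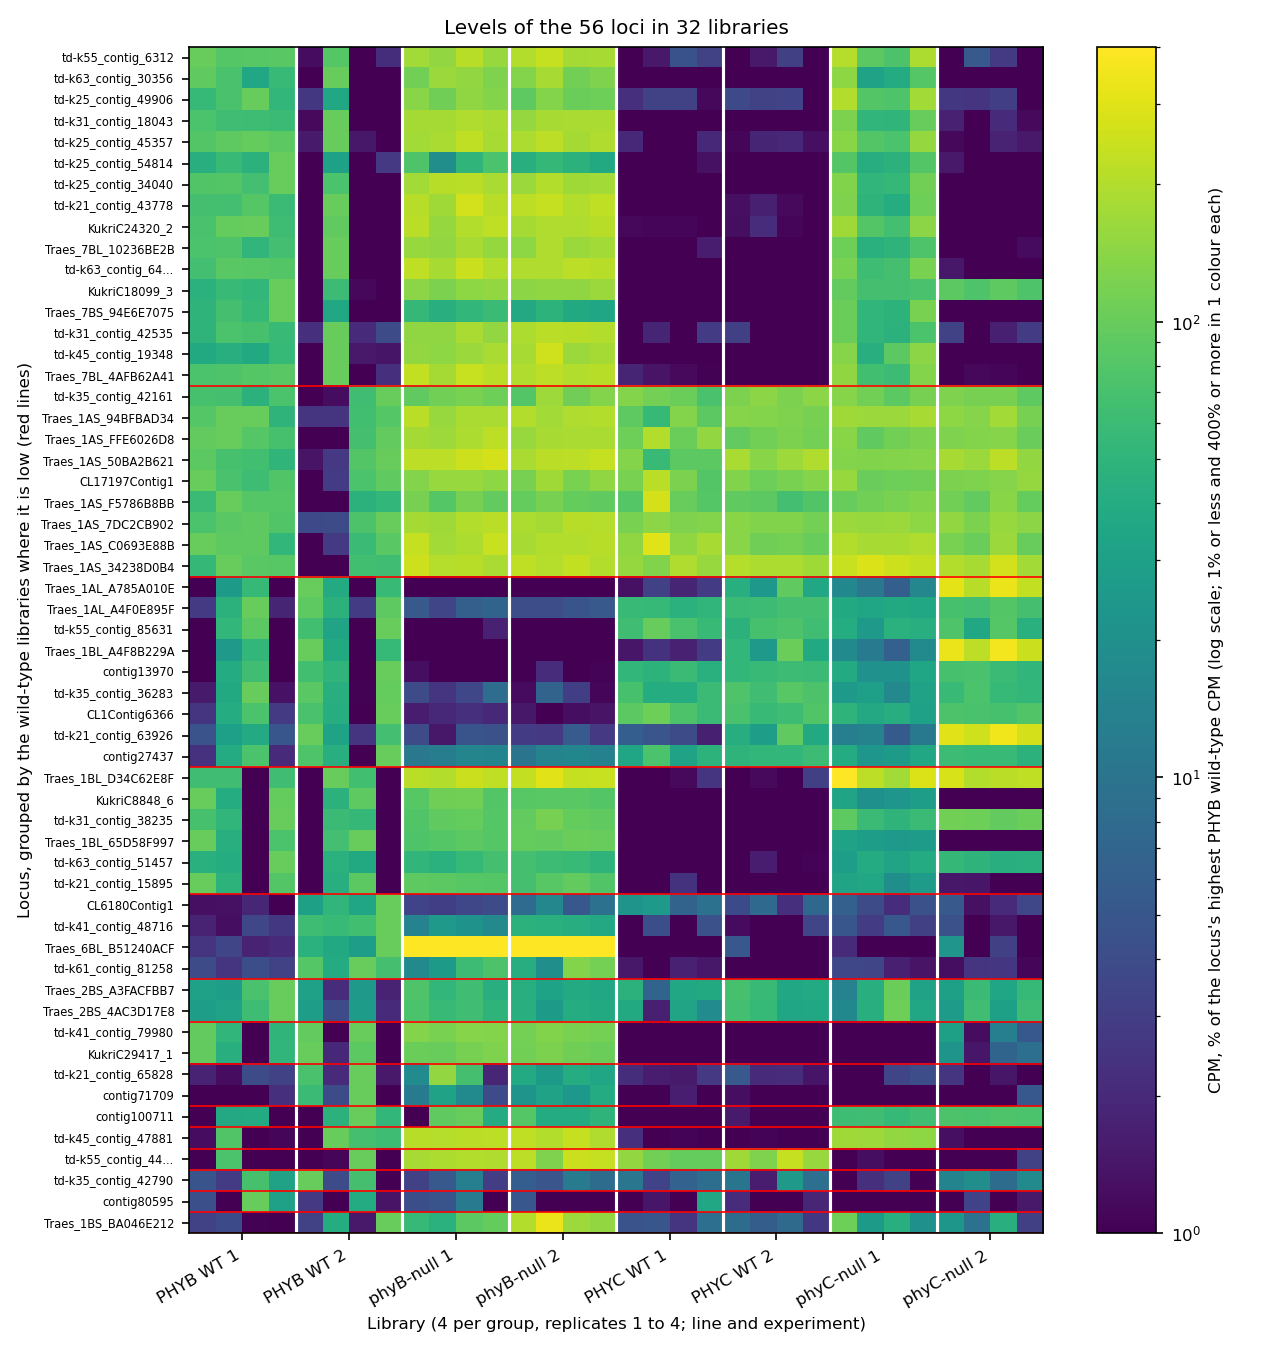
CPM of the 56 loci (rows) in the 32 libraries (columns, replicates 1 to 4 in each line and experiment), as percent of the highest *PHYB* wild-type value of the locus on a log colour scale. Red lines separate loci by their set of low *PHYB* wild-type libraries; the 16 loci of the 7B set at the top are low in all 8 *PHYC* wild-type libraries and high in the 4 *phyC*-null libraries of experiment 1.

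In the lines that the rule did not use, the loci were again mostly at one level or the other, but the level depended on the line. In *phyB*-null, 38 of the 56 loci (67.9%) were at 25% or more of the highest *PHYB* wild-type value in all 8 libraries, against 94% of eligible loci, and 5 (8.93% against 0.180%) were at 5% or less in all. In the *PHYC* wild type, 29 loci (51.8% against 0.295%) were low in all 8 libraries and 16 (28.6% against 80.4%) were high in all. In *phyC*-null, 15 loci (26.8% against 0.107%) had some high and some low libraries and none between, 17 (30.4% against 88.7%) were high in all and 4 (7.14% against 0.174%) low in all. The largest class in *phyC*-null was that of the other 20 loci (35.7% against 11.02%), with at least 1 library between the states. The 29 loci low throughout the *PHYC* wild type were close to silent there, since 45.7% of their 232 values were 0 reads, the median was 1 read and the highest 9 reads. Because these are whole-leaf libraries, less RNA per cell and fewer cells with the RNA cannot be told apart.

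**Figure D3:**
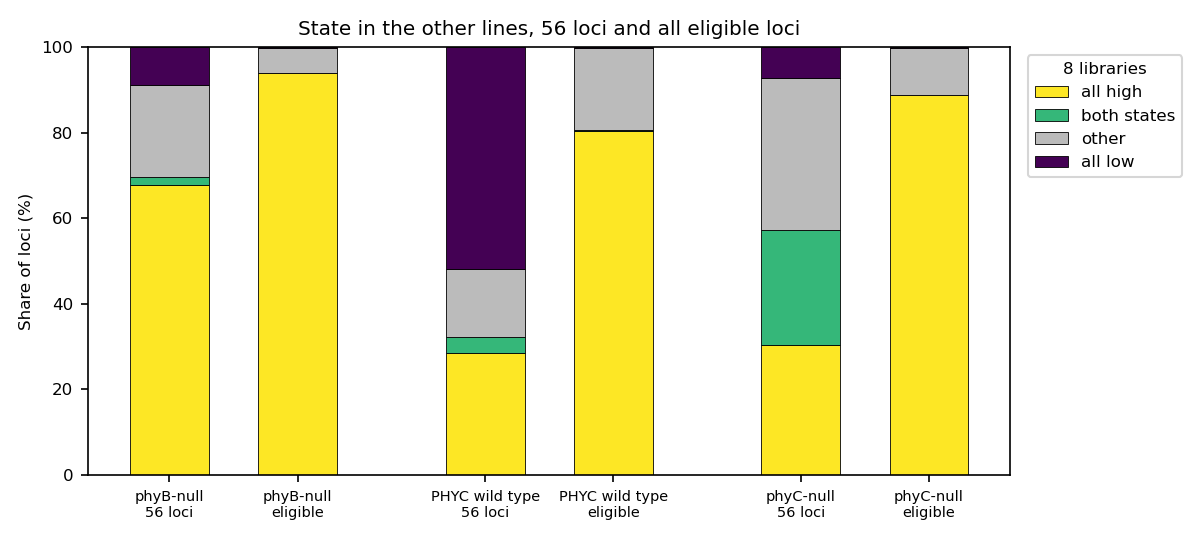
State of the 56 loci and of the 35623 eligible loci in the 8 libraries of each other line, as a share in percent (all high: every library at 25% or more of the highest *PHYB* wild-type value; all low: every library at 5% or less; both states: some high and some low with none between; other: the rest). The all-low share of the 56 loci is largest in the *PHYC* wild type (51.8%), and the both-states share in *phyC*-null (26.8%).

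Applied to the 8 libraries of each other line in turn, the same rule picked 50 loci in the *PHYC* wild type, 49 in *phyC*-null and 2 in *phyB*-null. Of the 56 loci, 0 were among those of *phyB*-null and 1 among those of the *PHYC* wild type. With *phyC*-null 20 were shared, which is 35.7% of the 56 and 40.8% of the 49. Each of these 20 was split wholly by experiment, with all *phyC*-null libraries of an experiment on the same side. The number of the 56 loci that were low in a library was 8 to 11 in *phyB*-null, 31 to 38 in the *PHYC* wild type, 10 or 11 in *phyC*-null of experiment 1 and 25 to 28 in *phyC*-null of experiment 2.

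**Figure D4:**
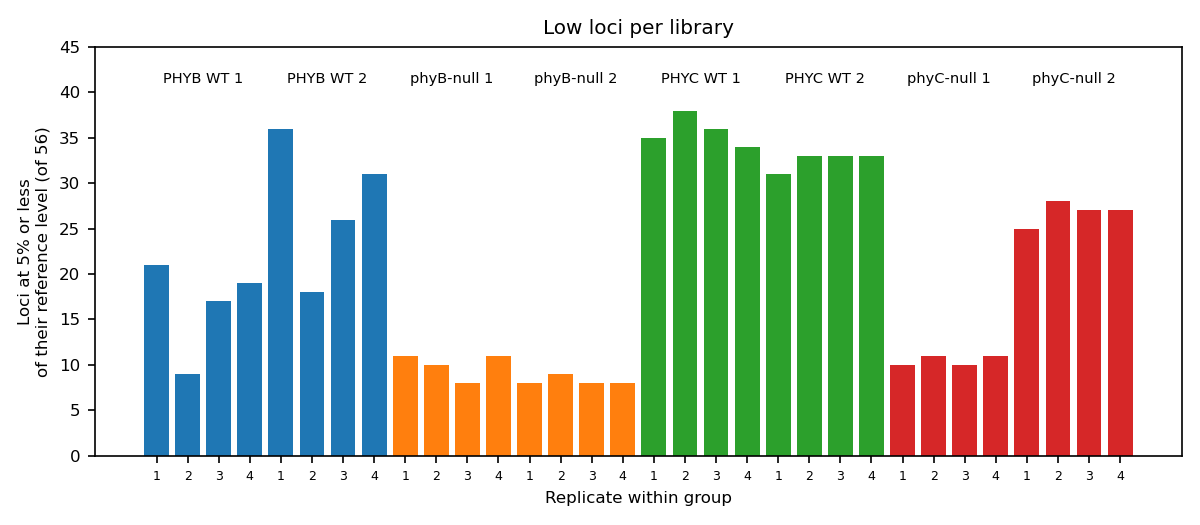
Number of the 56 loci at 5% or less of their highest *PHYB* wild-type CPM (vertical axis) in each library (bars, replicates 1 to 4 in each line and experiment). *PHYB* wild-type bars run from 9 to 36, *phyB*-null bars from 8 to 11, and *phyC*-null bars are 10 or 11 in experiment 1 and 25 to 28 in experiment 2.

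The 7B set spanned 100.2 Mb of 7B. Its 12 placed 7B loci lay between positions 56399589 and 156611392, another 7B locus was on a 7BL scaffold, and td-k55_contig_6312 (1B), td-k63_contig_30356 (2B) and td-k25_contig_49906 (3B) had the same low libraries elsewhere. The interval was not low as a whole: of 584 eligible loci in it, 522 (89.4%) were high in all 8 *PHYB* wild-type libraries, 12 belonged to the set, 1 was contig27437 of the dispersed set, and 49 were neither. Where sources name a likely product, the set held unrelated ones. Traes_7BL_4AFB62A41 resembles a tetratricopeptide repeat protein, td-k45_contig_19348 a mitochondrial DNA mismatch repair protein and td-k63_contig_6444_td-k45_contig_7522 a tropomyosin-like protein, td-k31_contig_18043 resembles an uncharacterized chloroplast protein, and td-k21_contig_43778 a hypothetical one.

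The most abundant locus of the 7B set was td-k25_contig_34040 (7B:67089945-67094751). In the *PHYB* wild type it was at 33.96, 35.3, 29.2 and 43.7 CPM in replicates 1 to 4 of experiment 1 and at 0.192, 32.4, 0.182 and 0.258 CPM in those of experiment 2. In *phyB*-null it was at 76.1, 90.95, 94.7 and 81.8 CPM and then 70.3, 88.0, 73.8 and 76.4 CPM. Each *phyB*-null library was thus above the highest *PHYB* wild-type library, the expressed ones included. In the *PHYC* wild type it was at 0.208, 0.119, 0.157 and 0.208 CPM in experiment 1 and 0.135, 0, 0.0403 and 0 CPM in experiment 2. In *phyC*-null it was at 55.6, 22.5, 23.6 and 49.4 CPM in experiment 1 and 0.190, 0.231, 0.110 and 0.0627 CPM in experiment 2. The *phyC*-null libraries of the 2 experiments did not overlap, and those of experiment 2 overlapped the wild type.

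Traes_7BL_4AFB62A41, on the 7BL scaffold 6739739 (bases 174 to 19529), followed the same course. It was at 14.9, 15.5, 16.8 and 17.5 CPM in *PHYB* wild type of experiment 1 and 0.128, 20.2, 0.152 and 0.459 CPM in experiment 2, and between 35.8 and 48.8 CPM in all *phyB*-null libraries. Its *phyC*-null values were 29.9, 13.1, 12.4 and 26.6 CPM in experiment 1 and 0.0474, 0.231, 0.220 and 0 CPM in experiment 2, with *PHYC* wild-type values of 0.0403 to 0.374 CPM. Traes_7BS_94E6E7075 (7B:153340796-153342689) differed in *phyB*-null, where its 4.23 to 7.32 CPM overlapped its expressed *PHYB* wild-type libraries (4.32 to 12.3 CPM). It was at 12.9, 6.37, 5.90 and 14.8 CPM in *phyC*-null of experiment 1 and at 0 reads in all 4 *phyC*-null libraries of experiment 2. It was at 0 reads in 6 of the 8 *PHYC* wild-type libraries and at 0.0416 and 0.0392 CPM in the others.

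Across the set, 13 of the 16 loci had every *phyB*-null library above the highest *PHYB* wild-type library, where 26 of all 56 loci and 9.81% of eligible loci did. Since the wild-type values chose the loci, nothing is read from this count. All 16 were low in every *PHYC* wild-type library and high in every *phyC*-null library of experiment 1. Among those 4 *phyC*-null libraries the level was uneven in a shared way. The set's median was 126% and 116% of the highest *PHYB* wild-type value in replicates 1 and 4 and 52.0% and 57.6% in replicates 2 and 3. In experiment 2, 14 of the 16 were low in every *phyC*-null library.

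A single locus of the set, KukriC18099_3 (7B:146024371-146027146), was expressed in both experiments of *phyC*-null. Its *phyC*-null values were 5.09, 3.69, 3.69 and 3.86 CPM in experiment 1 and 4.69, 4.16, 4.80 and 4.13 CPM in experiment 2, while its *PHYC* wild-type values were 0 to 0.0529 CPM. In the *PHYB* wild type it was at 2.48, 3.05, 2.85 and 5.35 CPM in experiment 1 and at 0.0319, 3.24, 0.0607 and 0.0287 CPM in experiment 2, like the rest of the set. On the chromosome its nearest neighbours of the set were td-k63_contig_6444_td-k45_contig_7522 (from 123710634) and Traes_7BS_94E6E7075 (from 153340796), both of which were low in *phyC*-null of experiment 2.

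The 1A set behaved otherwise outside the *PHYB* wild type. Its 9 loci lay between positions 27356620 and 177226940 of 1A, a span of 149.87 Mb in which 645 of 743 eligible loci (86.8%) were high in all *PHYB* wild-type libraries and 2 other loci of the 56 belonged to the dispersed set. All 9 were high in every library of *phyB*-null, the *PHYC* wild type and *phyC*-null. This is the usual state, held by 94%, 80.4% and 88.7% of eligible loci in these lines. Against the wild-type values that chose the loci, 7 of the 9 had every *phyB*-null library above the highest *PHYB* wild-type library, where 9.81% of eligible loci did, and nothing is read from this count. A product is named for Traes_1AS_50BA2B621, which resembles a SPRY-domain protein.

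Traes_1AS_94BFBAD34 (1A:103974421-103978109) was the most abundant of this set. It was at 10.4, 12.6, 12.6 and 6.15 CPM in *PHYB* wild type of experiment 1 and 0.319, 0.317, 8.17 and 10.5 CPM in experiment 2. It was at 27.2, 19.9, 23.8 and 23.6 CPM in *phyB*-null of experiment 1 and 25.5, 21.98, 24.9 and 25.1 CPM in experiment 2, all above the wild type. Its *PHYC* wild-type values were 6.98 to 16.9 CPM and its *phyC*-null values 14.7 to 23.1 CPM, and these ranges overlapped. Traes_1AS_7DC2CB902 (1A:167127673-167135547) was at 7.49, 8.82, 9.25 and 8.03 CPM and then 0.383, 0.412, 7.74 and 10.2 CPM in the *PHYB* wild type. Elsewhere it stayed between 11.7 and 22.2 CPM in all 24 libraries. Traes_1AS_C0693E88B (1A:167890308-167894233), less than 1 Mb away, had the same low libraries, with 5.68, 5.17, 5.15 and 3.03 CPM and then 0, 0.159, 3.40 and 4.90 CPM.

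The 1BL set was low in the *PHYC* wild type like the 7B set and divided in *phyC*-null. Its 6 loci were high in every *phyB*-null library and low in every *PHYC* wild-type library. In *phyC*-null of experiment 2, Traes_1BL_D34C62E8F, td-k31_contig_38235 and td-k63_contig_51457 were high in all 4 libraries, and KukriC8848_6, Traes_1BL_65D58F997 and td-k21_contig_15895 were low in all 4. The 4 loci on 1BL are on 4 different scaffolds, so their distances are not known, and td-k63_contig_51457 is on 4B (from 288018920) and td-k21_contig_15895 on 7A (from 2751433).

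Traes_1BL_65D58F997 (scaffold 3803326, bases 2387 to 6556) was at 44.6, 19.1, 0.102 and 32.9 CPM in *PHYB* wild type of experiment 1 and 0.160, 29.9, 43.9 and 0.229 CPM in experiment 2. In *phyC*-null it was at 14.0, 12.6, 11.1 and 12.2 CPM in experiment 1 and 0.190, 0.185, 0.0366 and 0.125 CPM in experiment 2. With *PHYC* wild-type values of 0.0403 to 0.250 CPM, the locus was thus expressed in 4 of the 16 *PHYC* libraries, those of *phyC*-null in experiment 1. td-k31_contig_38235 (scaffold 3816861, bases 137 to 4303) had the same *PHYB* wild-type course, with 20.3, 14.7, 0.102 and 28.7 CPM and then 0.0958, 16.9, 15.4 and 0.258 CPM. Its *phyC*-null values were 26.0, 17.2, 14.2 and 17.2 CPM in experiment 1 and 32.2, 30.8, 27.1 and 29.9 CPM in experiment 2, all above its *PHYC* wild-type values of at most 0.242 CPM. The 2 loci shared their low libraries in the *PHYB* wild type and parted in *phyC*-null.

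KukriC8848_6 (scaffold 3917340, bases 132 to 5076) went with Traes_1BL_65D58F997. It was at 6.41, 3.94, 4.41 and 5.53 CPM in *phyC*-null of experiment 1 and at 0 reads in all 4 libraries of experiment 2. Traes_1BL_D34C62E8F (scaffold 3834720, bases 1 to 814) went with td-k31_contig_38235, at 14.8, 7.48, 5.90 and 9.82 CPM and then 9.29, 6.79, 7.21 and 7.52 CPM in *phyC*-null, all of them above its highest *PHYB* wild-type value of 3.36 CPM. Its *PHYC* wild-type values were at most 0.106 CPM.

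In *phyB*-null the dispersed set was low or intermediate. None of its 9 loci was high in all *phyB*-null libraries of either experiment, and 6 were low in all 4 of experiment 1 and 5 in all 4 of experiment 2. contig27437 was between the states in all 8, at 9.96% to 15.8% of its highest *PHYB* wild-type value. In the *PHYC* wild type 6 of the 9 were high in all 8 libraries. The highest values of the set were at Traes_1AL_A785A010E (1A:46279812-46281465) and Traes_1BL_A4F8B229A (1BL scaffold 3753470, bases 1 to 961).

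Traes_1AL_A785A010E was at 0.225, 66.4, 141 and 0.120 CPM in *PHYB* wild type of experiment 1 and 253, 99.2, 0.243 and 146 CPM in experiment 2, and at 0.0394 to 0.426 CPM in all 8 *phyB*-null libraries. In the *PHYC* wild type it was at 3.29, 8.09, 4.74 and 7.39 CPM in experiment 1 and 111, 62.1, 233 and 89.9 CPM in experiment 2. In *phyC*-null it was at 41.1, 27.1, 15.5 and 40.4 CPM in experiment 1 and 795, 528, 840.1 and 585 CPM in experiment 2. The experiments did not overlap in either *PHYC* line, and the *phyC*-null libraries were above the wild type within each. Traes_1BL_A4F8B229A kept a nearly fixed ratio to it. In the 21 libraries where both reached 1 CPM, Traes_1AL_A785A010E was 1.57 to 2.52 times Traes_1BL_A4F8B229A in CPM, with a median of 1.80, although the levels spanned from 1.91 to 477 CPM for the latter.

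td-k21_contig_63926 (5A:102657362-102659163) had a similar course at a lower level. It was at 0.0830 to 0.291 CPM and 1.36 to 4.48 CPM in the *PHYC* wild type of experiments 1 and 2. In *phyC*-null it was at 0.266 to 0.716 CPM in experiment 1, where the genotypes overlapped, and at 12.5 to 17.2 CPM in experiment 2. Traes_1AL_A4F0E895F (1A:60251070-60256419) did not have this course. It was at 1.13, 18.8, 40.5 and 0.759 CPM in *PHYB* wild type of experiment 1 and 36.7, 18.9, 1.15 and 37.1 CPM in experiment 2, but at 18.4 to 27.9 CPM in every *PHYC* wild-type library and 13.9 to 32.3 CPM in every *phyC*-null library. In *phyB*-null it remained at 1.41 to 2.80 CPM, so its low state was well above 0 reads.

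**Figure D5:**
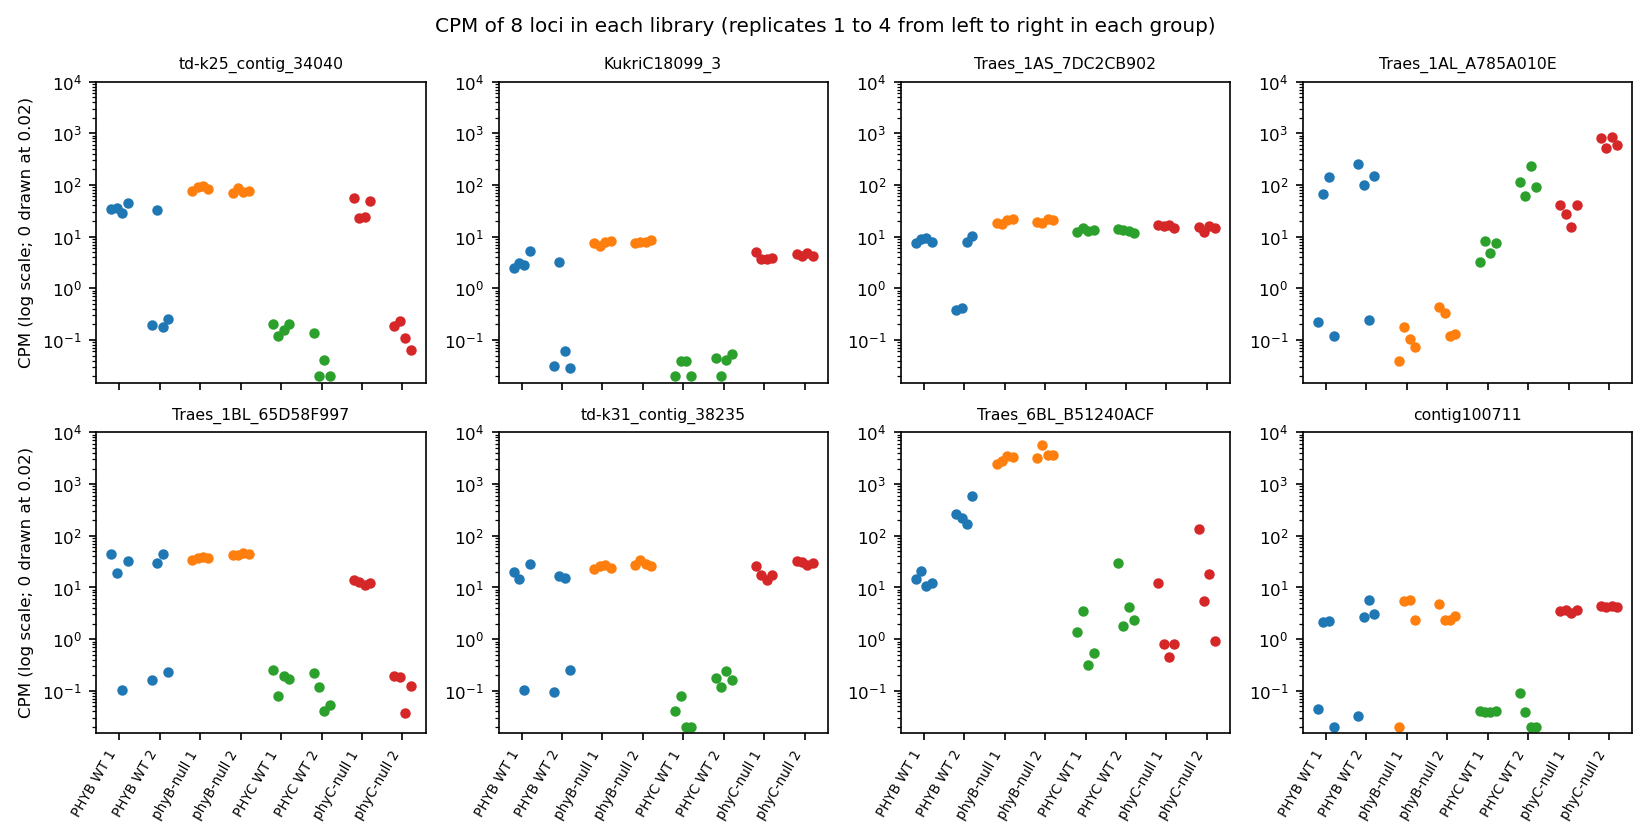
CPM of 8 loci in each library (log axis, 0 drawn at 0.02; points are single libraries, replicates 1 to 4 from left to right in each line and experiment). td-k25_contig_34040 and Traes_1BL_65D58F997 are low in *phyC*-null of experiment 2 (at most 0.231 CPM), where KukriC18099_3 and td-k31_contig_38235 are expressed (at least 4.13 CPM).

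Among the smaller sets, the 4 loci low in all of experiment 1 included Traes_6BL_B51240ACF (6BL scaffold 3720037, bases 452 to 2073), which resembles the photosystem II 10 kDa protein, a subunit of the oxygen-evolving side of photosystem II. It was at 10.5 to 20.7 CPM in *PHYB* wild type of experiment 1, 165 to 586 CPM in experiment 2, and 2391 to 5636 CPM in *phyB*-null. In all 16 *PHYC* libraries it was between 0.314 and 134 CPM and most often under 5 CPM. This locus was graded between lines and had no silent library among the *PHYB* plants.

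Traes_1BS_BA046E212 (1B:106039958-106041526), which resembles a peroxidase, was at 0.857, 1.02, 0.271 and 0.240 CPM and then 0.862, 10.9, 0.395 and 26.3 CPM in the *PHYB* wild type. In *phyB*-null it was at 14.7, 12.1, 23.5 and 25.5 CPM in experiment 1 and 53.2, 88.5, 43.7 and 40.3 CPM in experiment 2. The *PHYC* wild type held 0.666 to 2.37 CPM of it, and *phyC*-null 28.1, 6.84, 11.3 and 5.30 CPM in experiment 1 and 6.21, 2.49, 11.6 and 0.814 CPM in experiment 2, where the genotypes overlapped. It too was graded and was not at 0 in any of the 32 libraries.

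td-k55_contig_4494_td-k31_contig_5074 (5AS scaffold 1474960, bases 1 to 471) was the only one of the 56 loci that was high in all *PHYC* wild-type libraries and low in all *phyC*-null libraries. It was at 8.86, 6.51, 5.65 and 5.69 CPM in *PHYC* wild type of experiment 1 and 9.91, 7.21, 13.7 and 9.15 CPM in experiment 2, against 0, 0.0716, 0 and 0 CPM and 0.0474, 0, 0 and 0.188 CPM in *phyC*-null. In the *PHYB* wild type it was expressed in 2 libraries, at 4.30 CPM in replicate 2 of experiment 1 and 5.80 CPM in replicate 3 of experiment 2, with at most 0.0635 CPM in the others. All 8 *phyB*-null libraries expressed it, at 7.36 to 14.3 CPM.

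contig100711 (3A:158810630-158811529) had the reverse course in the *PHYC* lines, at most 0.0897 CPM in every wild-type library and 3.19 to 4.47 CPM in every *phyC*-null library. It was the only one of the 56 loci with both states in *phyB*-null, at 0, 5.38, 5.79 and 2.30 CPM in experiment 1 and 4.76, 2.32, 2.34 and 2.84 CPM in experiment 2. Its *PHYB* wild-type values were 0.0451, 2.17, 2.27 and 0 CPM and then 0.0319, 2.70, 5.80 and 3.10 CPM. td-k45_contig_47881 (5B:16995504-16997953), which resembles an NHL repeat protein, was expressed in all *phyB*-null libraries (7.26 to 8.69 CPM) and in *phyC*-null of experiment 1 (5.38 to 6.27 CPM), and was at most 0.0474 CPM in *phyC*-null of experiment 2 and at most 0.0832 CPM in its wild type.

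Some neighbouring loci shared their low libraries. With gaps of up to 5 Mb, 14 of the placed loci formed 6 runs of neighbours, and 11 of these 14 were in runs with a single set of low libraries. With gaps of up to 1 Mb, only 4 loci were in runs. td-k41_contig_79980 and KukriC29417_1 lie on the same 7AS scaffold (4235640), and td-k41_contig_79980 was at 2.86 to 4.07 times the CPM of KukriC29417_1 in the 14 libraries where both reached 1 CPM. td-k41_contig_79980 was at 18.1, 9.93, 0.0677 and 9.50 CPM and then 18.2, 0.159, 19.04 and 0.0860 CPM in the *PHYB* wild type. It was at most 0.135 CPM in the *PHYC* wild type, at most 0.147 CPM in *phyC*-null of experiment 1, and at 5.78, 0.231, 2.53 and 1.002 CPM in *phyC*-null of experiment 2. This was the reverse order of experiments to that of the 7B set.

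For 13 of the 56 loci another locus carries the same transcript name, so that reads could be divided between them. None of these partner loci was among the 56, and 11 of the 13 partners were under 0.2 CPM in all *PHYB* wild-type libraries. The partner of td-k35_contig_42161, on 2B, was at 1.05 to 2.04 CPM. The partner of td-k21_contig_15895, on 1B, was at 0 where that locus was low and at 1.25 to 2.57 CPM where it was high. This partner met the rule on values. It was not among the 56 because it lay in the left-out segment of 1B (124733502 to 124737062).

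The comparison of *phyC*-null with its wild type used libraries that the rule did not. In experiment 1, 30 of the 54 loci that could be tested changed (edgeR quasi-likelihood test, Benjamini-Hochberg adjusted p under 0.01 over all 77398 loci tested), whereas 1.64% of all loci tested did. Of these, 27 were higher in *phyC*-null (0.722% of all loci tested) and 3 were lower (0.923%). The median log2 fold change of the 54 was 1.69, against 0.0076 over all loci tested. The 27 comprised all 16 of the 7B set and all 6 of the 1BL set. For td-k25_contig_34040 the log2 fold change was 7.36 ± 0.39 (SE, n = 4 libraries a group) with an edgeR adjusted p of 1.5e-06, and for Traes_1BL_65D58F997 it was 5.78 ± 0.25 with an edgeR adjusted p of 5.1e-07. td-k45_contig_19348 was at 0 reads in the wild type and was at least 67.7-fold higher in *phyC*-null, counted against a floor of 3 reads over the 4 libraries.

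In experiment 2, 9 of 41 tested loci changed, against 1.04% of all loci tested. Higher in *phyC*-null were 8 (0.566% of all) and lower was 1 (0.474%), and the median log2 fold change was 0.091, against 0.0079 over all. From the 7B set only KukriC18099_3 was called, and 11 of its 16 loci had too few reads in the libraries of experiment 2 to be tested. From the 1BL set the 3 loci named above as high were called, among them td-k31_contig_38235 at 7.31 ± 0.21 (SE, n = 4 libraries a group, edgeR adjusted p 5.9e-09). From the dispersed set Traes_1AL_A785A010E (log2 fold change 2.36 ± 0.34), Traes_1BL_A4F8B229A (2.28 ± 0.35) and td-k21_contig_63926 (2.47 ± 0.29) were called. td-k55_contig_4494_td-k31_contig_5074 fell in both experiments, by 8.47 and 7.67 on the log2 scale (edgeR adjusted p 1.7e-06 and 2.0e-06), and contig100711 rose in both, by 5.95 and 6.74 (edgeR adjusted p 1.1e-06 and 7.2e-07). In all, 8 of the 40 loci tested in both experiments were called in the same direction in both, against 0.472% of all loci. Fold changes against groups with few reads depend on the prior count of the fit.

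Some of these calls did not hold when a library was left out. Of the 30 calls of experiment 1, 26 held whichever library was left out, and those of Traes_1AL_A785A010E, Traes_1AL_A4F0E895F (fell by 0.86 on the log2 scale), CL1Contig6366 (fell by 1.38) and Traes_1BS_BA046E212 (rose by 2.81, edgeR adjusted p 0.0088) did not. With a library left out, their edgeR adjusted p reached at most 0.018, 0.021, 0.016 and 0.028. Traes_1AL_A785A010E was lost without replicate 3 of the wild type or replicate 1, 2 or 4 of *phyC*-null, Traes_1AL_A4F0E895F without replicate 4 of the wild type or any *phyC*-null replicate, and CL1Contig6366 without *phyC*-null replicate 2 or 4. Traes_1BS_BA046E212 was lost without any replicate other than replicate 2 of the wild type and replicate 4 of *phyC*-null. Of the 9 calls of experiment 2, 7 held throughout. Traes_1AL_A785A010E (at most 0.011) was lost without replicate 1 or 4 of the wild type, and Traes_1BL_A4F8B229A (at most 0.016) without either of these or replicate 1 or 3 of *phyC*-null.

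Differences between the experiments of a line were compared over the same loci. The experiment stands for the chamber, the time and the plants together, which cannot be told apart. In *phyC*-null, 31 of 53 tested loci differed between the experiments, against 3.68% of all loci tested, with 12 higher in experiment 2 (1.96% of all) and 19 lower (1.72%). The median log2 difference was -0.12, against -0.0037 over all loci. The 19 comprised 15 of the 16 loci of the 7B set, 3 of the 1BL set and td-k45_contig_47881. For td-k25_contig_34040 the difference was -7.76 ± 0.41 (log2, SE, n = 4 libraries a group, edgeR adjusted p 7.8e-07). For loci at 0 reads in experiment 2 the fall was at least 285-fold for Traes_7BS_94E6E7075, 145-fold for KukriC8848_6, 120-fold for KukriC24320_2 and 59.0-fold for td-k45_contig_19348, counted against the same floor of 3 reads.

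The 12 loci higher in experiment 2 of *phyC*-null comprised 8 of the 9 of the dispersed set, with log2 differences of 0.997 to 4.88, both loci of the 7AS scaffold, td-k31_contig_38235 (0.87 ± 0.16) and td-k35_contig_42790 (3.14 ± 0.51). Of the 31 calls, 23 held whichever library was left out, and the 8 that did not were all among these 12. They were td-k41_contig_79980, KukriC29417_1, td-k31_contig_38235, contig13970, td-k35_contig_36283, CL1Contig6366, contig27437 and td-k35_contig_42790, whose edgeR adjusted p then rose to between 0.011 and 0.024. *phyC*-null replicate 2 of experiment 1 was among the libraries without which each of these 8 calls was lost.

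In the *PHYC* wild type, 2 of 35 tested loci differed between the experiments, against 0.0536% of all loci tested. These were Traes_1AL_A785A010E (log2 difference 4.30 ± 0.44, n = 4 libraries a group, edgeR adjusted p 0.0030) and Traes_1BL_A4F8B229A (4.62 ± 0.44, edgeR adjusted p 0.0018). Neither was called without replicate 3 of experiment 1, and the count was 1 without replicate 4 of experiment 1 or replicate 1 of experiment 2. The median log2 difference of the 35 was 0.11, against -0.0030 over all loci.

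In *phyB*-null, 2 of 54 tested loci differed between the experiments, against 0.524% of all loci tested. They were td-k41_contig_48716 (log2 difference 1.16 ± 0.19, n = 4 libraries a group, edgeR adjusted p 0.0070) and Traes_1BS_BA046E212 (1.62 ± 0.24, edgeR adjusted p 0.0047). The count was 0 without replicate 1 or 3 of experiment 1 or replicate 1 of experiment 2, and 1 without replicate 4 of experiment 1 or replicate 2, 3 or 4 of experiment 2. The median log2 difference was 0.028, against -0.0028 over all loci.

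Whether the *phyC*-null effect differed between experiments was tested as an interaction over the 16 *PHYC* libraries. It was called at 1 of the 56 loci, against 0.0172% of all loci tested. This was Traes_1BL_65D58F997, whose log2 fold change was lower in experiment 2 by 5.64 ± 0.74 (SE, n = 4 libraries a group, edgeR adjusted p 0.0024). The call was lost without replicate 1 or 2 of the wild type of experiment 2, and 3 loci were called without replicate 2 or 3 of *phyC*-null of experiment 1. The count depended on the fit. The interaction was called at 14 of the 56 loci with DESeq2, at 6 without a filter on low counts and at 8 with an edgeR adjusted p threshold of 0.05. For the other loci the effects of the 2 experiments are given side by side above, and a difference that did not pass this test is not shown to be absent.

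The comparison of *phyB*-null with its wild type contains the libraries that chose the loci, and nothing is read from it. In experiment 1, 24 of the 56 loci were called, with 9.41% of all loci tested called. In experiment 2, 11 were called, with 11.6% of all, and 4 loci were called in the same direction in both, with 5.01% of all. The median log2 fold change of the 56 was 0.80 and 1.60 in the 2 experiments, against 0.026 and 0.0016 over all loci. Since the wild-type values chose the loci, the counts with a library left out are descriptions only as well. The count of experiment 2 was 26 without replicate 2 of the wild type, 6 without wild-type replicate 1, and 5, 5, 3 and 2 without *phyB*-null replicates 1 to 4. The count called in both was 14 without that wild-type replicate 2, 8 without wild-type replicate 4 of experiment 1, 2 when wild-type replicate 2 of experiment 1 was left out or replicate 3 of *phyB*-null of experiment 2, and 1 without replicate 4 of *phyB*-null of experiment 2 or any single replicate of *phyB*-null of experiment 1.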

How the data were processed

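RNA of 32 leaf samples in 8 groups of 4 was sequenced by the authors, who mapped the reads with GSNAP to the chromosome arms of the A and B genomes in the Chinese Spring draft assembly and counted uniquely mapped reads per locus with HTSeq. The deposited values are raw read counts without normalization, for 150754 loci, and all 32 columns were used. Positions are the start and end of each locus in the deposited annotation, and differ slightly from those in the locus names. The version of HTSeq and its use of strand are not given in the sources used here, so overlapping and antisense transcripts cannot be told apart. Columns with the authors' own fold changes and p-values in the supplementary tables were not used.

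CPM were computed from column totals. Genotypes were compared within each experiment with the quasi-likelihood test of edgeR 4.0.16 in R 4.3.3 (RLE size factors, no covariates, loci kept with 3 or more reads in 2 or more of 8 libraries, 2-sided, Benjamini-Hochberg adjusted p under 0.01 over all loci tested). The same test compared the experiments of *phyB*-null. The comparisons between experiments of *phyC*-null and of the *PHYC* wild type and the interaction (16 libraries) were added after the values were seen. The test was checked on simulated counts. TMM factors, other filters, DESeq2 1.42.0, an adjusted p threshold of 0.05, a replicate block, other cutoffs of the rule and leaving out each library were tried as alternatives.

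The members and lists were chosen with earlier results of these data known. Loci were named by rule: the most abundant locus of each run of neighbours and the 3 most abundant of each of the 4 commonest sets of low libraries, the 6 most abundant with a product description, the 5 with the largest mean change among those called in both *PHYC* experiments, the 3 most abundant with both states in each other line, and the 3 nearest to each side of each cutoff. All other loci named were outside this rule and were named after their values were seen. Among them were td-k41_contig_48716, td-k41_contig_79980, KukriC29417_1, td-k45_contig_47881, td-k63_contig_51457, td-k45_contig_19348, KukriC24320_2, CL1Contig6366 and the partner loci. Product descriptions come from supplementary tables of loci called in *phyB*-null and cover 9 of the 56 loci. Floors cover counting error only, and group spread includes plant and library variation. Each SE was derived from the log2 fold change and the F statistic of the edgeR fit, so it includes the spread between replicates.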

Additional observations from a re-analysis of the deposited data

Results flagged for a closer look

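In 92 groups of 4 libraries tested, 10 held a library whose gap to its nearest neighbour took up more of the group's range than Dixon's critical value of 0.829, and chance gives about 1 in 20. Of these, 4 concerned Traes_6BL_B51240ACF, at 5636 CPM in *phyB*-null replicate 2 of experiment 2 (others 3216 to 3626), 12.3 CPM in *phyC*-null replicate 1 of experiment 1 (others 0.456 to 0.824), 29.9 CPM in *PHYC* wild-type replicate 1 of experiment 2 (others 1.83 to 4.11) and 134 CPM in *phyC*-null replicate 1 of experiment 2 (others 0.940 to 18.4). In the same *phyB*-null replicate 2 of experiment 2, Traes_1AS_94BFBAD34 was low at 21.98 CPM (others 24.9 to 25.5), Traes_1BL_D34C62E8F was high at 10.3 CPM (others 7.71 to 8.06), and 9 of the 56 loci were low where each other replicate had 8. In *PHYC* wild-type replicate 1 of experiment 2, 31 of the 56 loci were low, against 33 in each other replicate. These 2 whole-number counts stood apart because the other replicates were tied, so any difference would have done so, and they say nothing beside the chance rate. KukriC18099_3 was at 5.09 CPM in *phyC*-null replicate 1 of experiment 1 (others 3.69 to 3.86). contig80595 was at 2.99 CPM in *PHYC* wild-type replicate 4 of experiment 1 (others 0 to 0.119).

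The effect of *phyC*-null differed between the experiments at Traes_1BL_65D58F997 by an interaction test, with a log2 difference of -5.64 between the fold changes of experiment 2 and experiment 1 (SE 0.74, edgeR adjusted p 0.0024, 4 of 4 *phyC*-null libraries of experiment 1 above all of experiment 2). It was called in 14 of 16 fits with a library left out, and lost without *PHYC* wild-type replicate 1 or 2 of experiment 2, with an edgeR adjusted p of up to 0.057.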

How the results depend on the processing

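Of 95 alternatives other than left-out libraries, 71 left a count within 1.5 times its value and 24 did not. These are counts and hold no direction. Direction was checked separately for 45 calls at named loci, in comparisons without the *PHYB* wild type, and none reversed. The number of loci that met the rule was 33 with a minimum of 5 CPM, 21 with a high share of 50%, 32 with a low share of 2% and 112 with a low share of 10%. With cutoffs of 15% and 10%, *phyB*-null had 8 loci all low, 3 in both states and 5 other, the *PHYC* wild type 7 in both states and 1 other, and *phyC*-null 7 all low and 6 other. With the median of the high libraries as reference, the *PHYC* wild type had 0 in both states and 14 other. With gaps of up to 1 Mb, 4 loci were in runs. At an adjusted p threshold of 0.05, 38 and 19 loci were called in *phyB*-null of experiments 1 and 2, 16 in both, and 8 in the interaction. Without a filter, the interaction was called at 6 loci and *phyB*-null in both experiments at 10. With filterByExpr, 7 were called in *phyB*-null of experiment 2, 1 in both, and 0 between the *phyB*-null experiments, where 47 of the loci were tested. With DESeq2 the interaction was called at 14 loci. Where no cause is named, the cause was not tested.

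With each library left out in turn, 44 to 64 loci met the rule. The calls ranged from 26 to 33 and 7 to 11 for *phyC*-null in experiments 1 and 2 (6 to 8 in both), 17 to 30 and 2 to 26 for *phyB*-null (1 to 14 in both), 0 to 2 between the *phyB*-null experiments, 23 to 32 between the *phyC*-null experiments, 0 to 3 between the *PHYC* wild-type experiments and 0 to 3 for the interaction.

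Same-numbered replicates did not deviate together (correlations of -0.345 to 0.143, own number the best match for 0 or 1 of 4). No pairing by number was thus seen, although 4 replicates a group cannot exclude one. With the replicate block, 28 and 10 loci were called in *phyC*-null, 19 and 9 in *phyB*-null, 2 between the *phyB*-null experiments, 32 between the *phyC*-null experiments, 3 between the *PHYC* wild-type experiments and 1 in the interaction. Traes_1AL_A4F0E895F in *phyC*-null of experiment 1 was not called with the block (edgeR adjusted p 0.018), nor was Traes_1BS_BA046E212 (0.020, and 0.013 with filterByExpr), nor the latter between the *phyB*-null experiments with filterByExpr (0.010). At the smallest library total 2 CPM are 31.9 reads, which limits what can be said of the faint loci.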
